A study of Homo sapiens with 6 samples.

Results

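The transcripts of 9 genes that store, import, export and sense iron were measured in A549 cells, a long-established human cell line from a lung adenocarcinoma, with and without knockdown of the centrosomal protein gene CEP20. The genes were taken by symbol from the deposited table of Ensembl genes: the ferritin genes FTH1 and FTL, the ferritin receptor gene NCOA4, the import genes TFRC, SLC11A2 and SLC39A14, the export gene SLC40A1, and the genes of the iron regulatory proteins, ACO1 and IREB2. All 9 were found among the 60624 genes of the table, and all 9 were among the 14778 genes tested, those whose mean reached 1 TPM (a transcript level scaled to transcript length and to the library total). The siCEP20 group held 3 samples given siRNA against CEP20 and the siCTR group 3 samples given a control siRNA, all harvested 3 days after transfection according to the labels. The labels do not say which siRNA sequence was used, their treatment field names a plasmid transfection, and they give F-12K medium where the methods give DMEM. The methods describe results in general as coming from 3 independent experiments, but the labels do not say how the 3 samples of a group were grown, so p-values measure the spread between these samples, which may be technical.

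Iron that enters a cell by the transferrin receptor or by metal ion transporters is used, exported by ferroportin, or stored inside ferritin, a shell built from heavy (H) and light (L) subunits. NCOA4 carries ferritin to the lysosome, where the iron is released. When iron is scarce, the iron regulatory proteins bind hairpins called iron-responsive elements, which blocks translation where the hairpin lies in the 5′ UTR (ferritin, ferroportin) and protects the transcript from decay where it lies in the 3′ UTR (the transferrin receptor). Much of this control acts on translation and on protein turnover, which these data do not measure.

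The hairpin letters were searched in the annotated UTRs, because they are what ties the ferritin, ferroportin and transferrin receptor transcripts to the same regulators. The search, on the transcript strand alone, took a loop of CAGTGN, a C that lies 5 bases before the loop, and pairing, G-U included, of those 5 bases with the 5 bases after the loop. They occurred in the 5′ UTR of the canonical transcript of FTH1, FTL and SLC40A1, and 4 times in the 3′ UTR of TFRC. Among tested protein-coding genes, 0.0824% held them in a canonical 5′ UTR (10 of 12132 genes) and 0.742% in a canonical 3′ UTR (90 of 12133 genes). The sites are written 5′ to 3′ as DNA from the GENCODE 44 transcripts (hg38), with the unpaired C and the loop of 6 bases in capitals.
FTH1, exon 1, chr11:61967575-61967601, minus strand: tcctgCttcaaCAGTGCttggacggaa
FTL, exon 1, chr19:48965336-48965362, plus strand: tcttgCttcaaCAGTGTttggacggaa
SLC40A1, exon 1, chr2:189580662-189580688, minus strand: aacttCagctaCAGTGTtagctaagtt
TFRC, exon 19, chr3:196050980-196051006, minus strand: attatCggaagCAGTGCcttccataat
TFRC, exon 19, chr3:196050576-196050602, minus strand: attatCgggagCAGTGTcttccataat
TFRC, exon 19, chr3:196050511-196050537, minus strand: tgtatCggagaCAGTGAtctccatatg
TFRC, exon 19, chr3:196050464-196050490, minus strand: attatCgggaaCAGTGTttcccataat
These letters were not in the annotated UTRs of SLC11A2, SLC39A14, NCOA4, IREB2 or ACO1, which says only that this spelling is absent there.

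The knockdown was seen in all siCEP20 samples. CEP20 measured 29.2, 30.5 and 35.1 TPM in siCTR samples 1, 2 and 3 and 16.2, 15.3 and 17.3 TPM in siCEP20 samples, which left 51.4% of the control level (log2 fold change -0.92, limma adjusted p = 0.000205). The epithelial keratin genes KRT8 and KRT18 were at 1535 TPM or more in every library, while EPCAM stayed between 0.834 and 3.85 TPM and was higher in the siCEP20 samples. Defining genes of immune (PTPRC, CD3E), endothelial (PECAM1, VWF) and erythroid cells (HBB, HBA1, ALAS2) did not exceed 0.641 TPM. Of the fibroblast markers, DCN and COL3A1 did not exceed 0.195 TPM, while COL1A1 ran from 5.27 to 5.90 TPM in siCTR samples and from 17.5 to 19.6 TPM in siCEP20 samples. The macrophage marker CD68 ran from 15.0 to 23.0 TPM against 27.0 to 45.3 TPM. The part of these marker differences in the values of the iron genes was not tested. Rows of mitochondrial pseudogenes, 404 in number, took an uneven part of the library totals, with 2.49%, 0.611% and 0.153% in the siCTR samples and 5.30%, 0.180% and 1.49% in the siCEP20 samples. In both groups replicate 1 was highest, through MTATP8P1, a row listed at 0 in the other 4 libraries. Since TPM adds up to a fixed sum, this lowers every other value of those libraries by the same factor.

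After CEP20 knockdown, FTH1, NCOA4 and ACO1 rose and SLC39A14 fell, each by less than 1.5-fold, whereas FTL, TFRC, SLC11A2, SLC40A1 and IREB2 did not pass the test. By count, 3 of the 9 genes were higher and 1 was lower with limma (Benjamini-Hochberg adjusted p-value under 0.05 over all tested genes), against 30.2% and 13.2% of all tested genes, or 43.3% in either direction. The members' shares in either direction were thus close to those of all tested genes. None of the 9 passed the study's fold change threshold (over 1.5 or under 0.67) as well, which 11.2% of tested genes passed upwards and 4.61% downwards. The study applied that threshold with DESeq2, so these shares, from limma on unscaled TPM, are not the study's own. At an unadjusted p-value under 0.05, without a fold change threshold, 5 of the 9 differed. The share of all tested genes at that threshold was at least 43.3%, since every gene that passed when adjusted also passed unadjusted. The ranges of the groups were separate for 5 of the 9 genes, against 55.4% of all tested genes. In bulk RNA, fewer cells with a transcript and less of it per cell cannot be told apart. Fold changes are differences of log2(TPM + 1), siCEP20 against siCTR. The median over all tested genes on this scale was 0.13. Median-of-ratios scaling brought it to 9.4e-05, with 2963 genes higher and 3185 lower in place of 4457 and 1944, and left 1 member higher (NCOA4) and 2 lower (SLC39A14 and IREB2), so each change is also given relative to all tested genes. With the fold change threshold as well, that scaling gave 894 genes higher and 1103 lower in place of 1659 and 682. NCOA4 was the 1 member that passed in all 17 alternative settings. SLC39A14 passed in 16, FTH1 in 13 and ACO1 in 11.

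**Figure D1:**
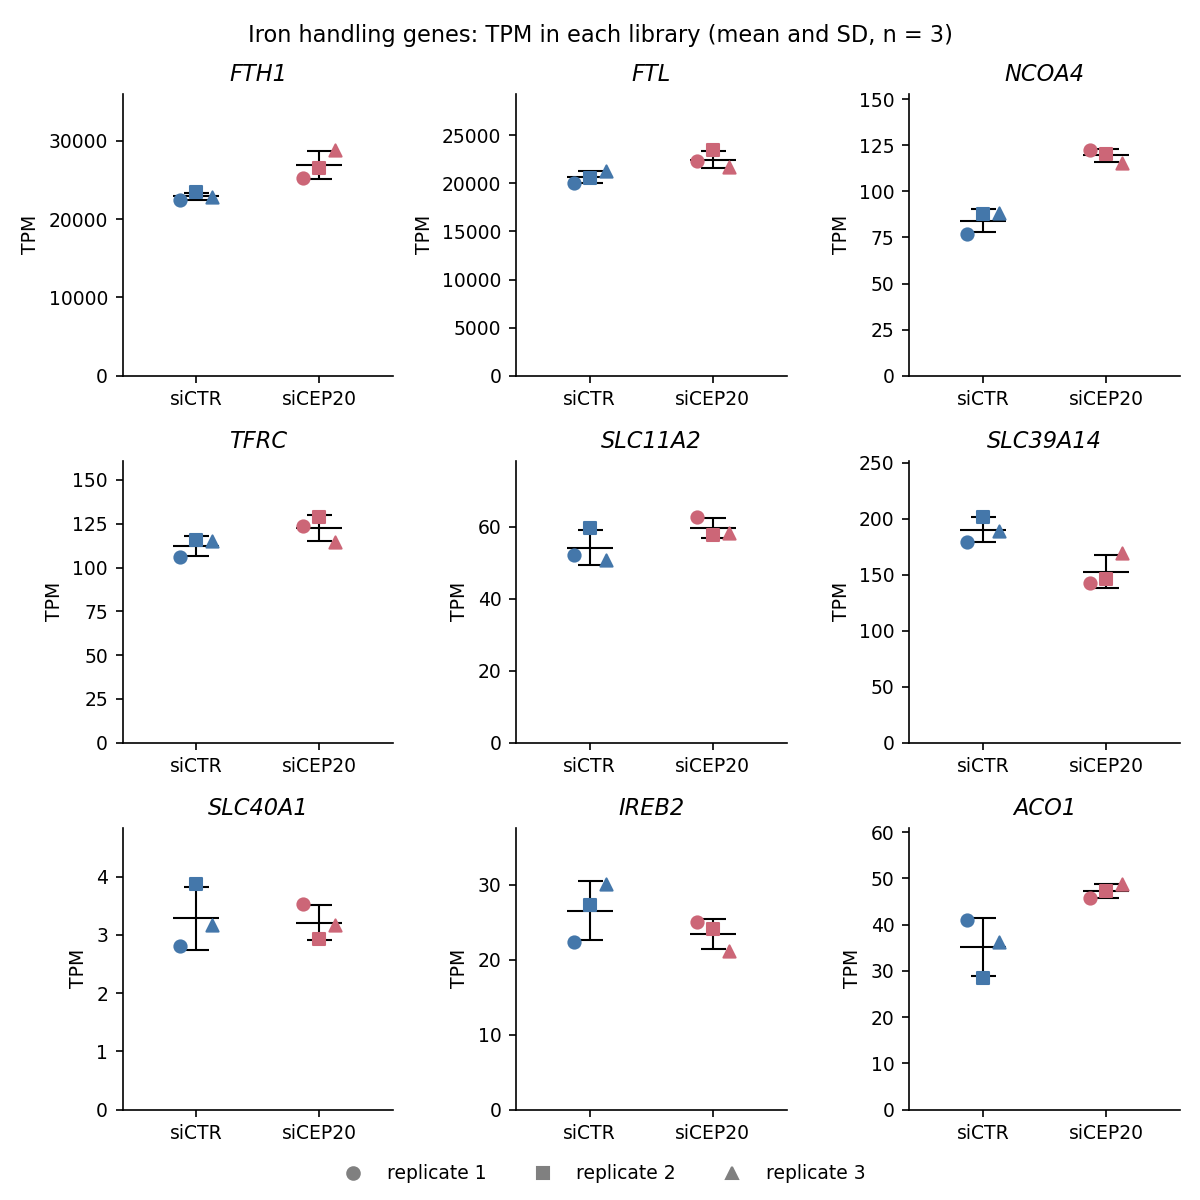
TPM of each iron handling gene (vertical axis, linear from 0) in the 3 siCTR and 3 siCEP20 libraries, with points for replicates 1 (circle), 2 (square) and 3 (triangle), and the mean and SD of each group as bars. The groups are separate for FTH1, FTL, NCOA4, SLC39A14 and ACO1 and overlap for TFRC, SLC11A2, SLC40A1 and IREB2.

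FTH1 and FTL had the highest mean TPM of all tested genes over the 6 libraries (ranks 1 and 2), although MTATP8P1 stood above both in replicate 1 of either group, and their sum made up 4.25%, 4.40% and 4.42% of the library total under siCTR and 4.76%, 5.01% and 5.05% under siCEP20. The groups did not overlap. With the mitochondrial pseudogene rows left out and each library rescaled, a step chosen after seeing the data, the shares were 4.36%, 4.43% and 4.42% against 5.02%, 5.02% and 5.13%, which were also separate and closer to each other within the siCEP20 group.

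FTH1 (ENSG00000167996, chromosome 11 from 61959718 to 61967634, minus strand) encodes the H subunit, which oxidises iron for storage. It was at 22453, 23406 and 22853 TPM in replicates 1, 2 and 3 of siCTR and at 25273, 26582 and 28826 TPM in those of siCEP20. Every siCEP20 value was above every siCTR value, as in 38.4% of all tested genes, and siCEP20 sample 3 was the highest. The mean went from 22904 ± 478 to 26894 ± 1797 TPM (SD, n = 3 each) for a log2 fold change of 0.23 with a standard error of 0.0545 (limma, adjusted p = 0.0105), or 0.10 relative to all tested genes. The call ended with median-of-ratios scaling (0.079, adjusted p = 0.357), with quantile normalization (0), without a trend in eBayes (adjusted p = 0.0506) and without the filter on low TPM (adjusted p = 0.517). Quantile normalization could not call FTH1 in either direction, since its ranks among all genes were the same in both groups.

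FTL (ENSG00000087086, chromosome 19 from 48965309 to 48966879, plus strand) encodes the L subunit, which helps the iron core to form. Its level was 20065, 20584 and 21314 TPM under siCTR and 22304, 23483 and 21671 TPM under siCEP20. The groups were separate, but siCEP20 sample 3 lay only just above siCTR sample 3. The log2 fold change was 0.12 (95% interval 0.01 to 0.23, limma adjusted p = 0.0663), and -0.010 relative to all tested genes. FTL passed after the length and GC correction of each library (0.19, adjusted p = 0.00799), with the mitochondrial pseudogene rows left out (0.14, adjusted p = 0.0227) and with a filter at 5 TPM (adjusted p = 0.0416), and its sign turned with median-of-ratios scaling (-0.029).

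The ratio of FTH1 to FTL is the same under any factor that scales a whole library. It was 1.12, 1.14 and 1.07 in siCTR samples and 1.13, 1.13 and 1.33 in siCEP20 samples, so the groups overlapped and siCEP20 sample 3 stood apart from the other 5 libraries. Means were 1.11 ± 0.0335 and 1.20 ± 0.114 (SD, n = 3 each). The log2 fold changes of FTH1 and FTL differed by 0.11 as reported and by 0.036 after the length and GC correction, which alters the genes of a library unequally. Under quantile normalization both were 0, because each gene took the same ranks in both groups. That setting therefore cannot show a change of either gene or of their ratio.

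Most of the other abundant transcripts that passed were lower. Of the 134 tested genes whose mean reached 1000 TPM, a limit chosen after seeing the data, 79 were lower, 32 higher and the median log2 fold change was -0.25, whereas FTH1 was higher and FTL did not pass. With median-of-ratios scaling neither ferritin gene passed. The plot of level against log2 fold change shows both ferritin genes at its right end, above 0, where the points left of them spread mostly below it.

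**Figure D2:**
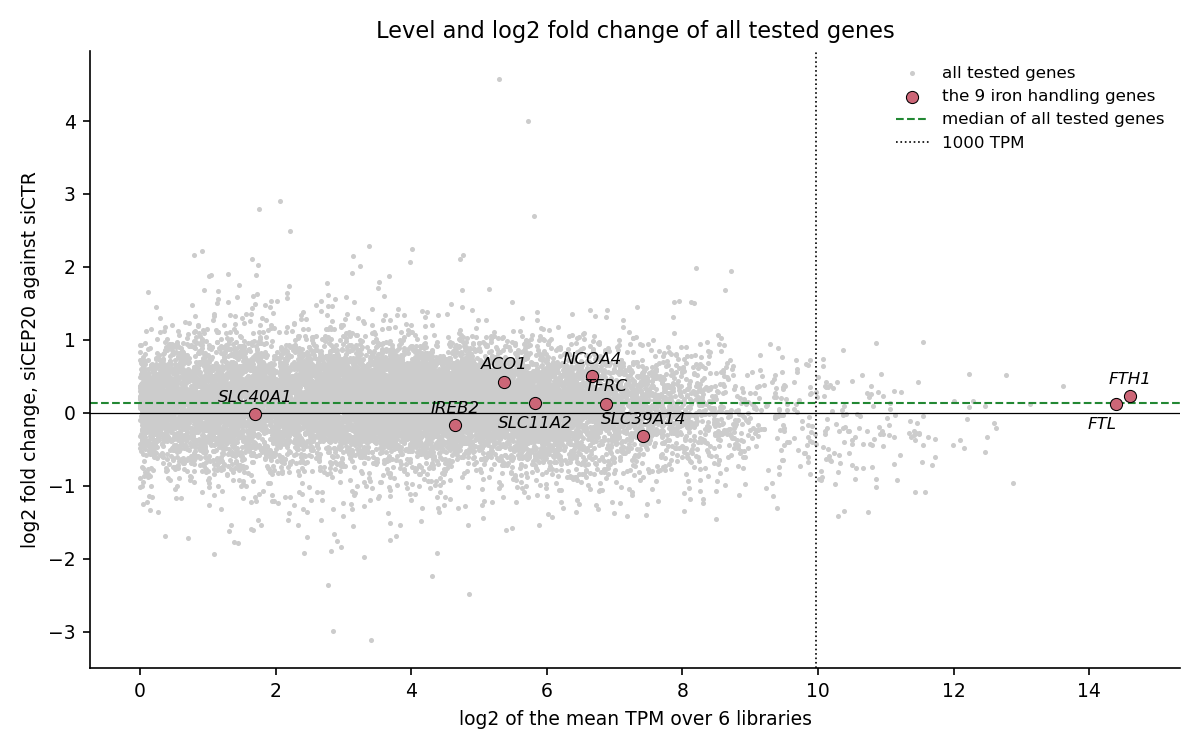
Log2 fold change (vertical axis, siCEP20 against siCTR, on log2(TPM + 1)) against the log2 of the mean TPM over the 6 libraries (horizontal axis) for the 14778 tested genes in grey and the 9 iron handling genes in red. FTH1 and FTL lie farthest to the right. The dashed line is the median of all tested genes (0.13) and the dotted line marks 1000 TPM.

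Reads of ferritin transcripts can also be placed on processed pseudogenes. Of 25 FTH1 pseudogene rows, 11 reached a mean of 1 TPM, and together the 25 summed to between 0.554% and 0.729% of FTH1 in the 6 libraries. The 16 FTL pseudogene rows summed to at most 0.115% of FTL. Of the 12 ferritin pseudogenes tested, 2 were higher (FTH1P20 and FTH1P12) and 1 lower (FTH1P8). FTH1P20 measured 9.55, 9.24 and 11.2 TPM under siCTR and 16.2, 15.6 and 17.7 TPM under siCEP20, a log2 fold change of 0.67. Adding the pseudogene rows to their parent genes left FTH1 called and FTL not called. FTH1 overlaps BEST1, a gene on the opposite strand with 1.56 to 1.83 TPM under siCTR and 15.0, 2.51 and 40.0 TPM under siCEP20, and while the library protocol removed the second strand, the sources used here do not give a strand setting for the quantification.

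NCOA4 (ENSG00000266412, chromosome 10 from 46005088 to 46030623), the receptor for ferritin breakdown, had the largest log2 fold change of the 9 genes in TPM as deposited, while relative to all tested genes that of SLC39A14 was larger in size (-0.45 against 0.37). It measured 76.9, 87.6 and 88.1 TPM under siCTR and 123, 121 and 116 TPM under siCEP20. The groups were far apart relative to their spread. The mean went from 84.2 ± 6.34 to 120 ± 3.53 TPM (SD, n = 3 each), which is 142% of the control level, with a log2 fold change of 0.50 with a standard error of 0.0689 (limma, adjusted p = 0.000844), or 0.37 relative to all tested genes. Over the 17 alternatives the log2 fold change ran from 0.32 with the length and GC correction to 0.54, and the adjusted p from 0.000491 to 0.00612. Against ferritin, a ratio that no factor on a whole library changes, there were 1.81, 1.99 and 2.00 NCOA4 transcripts per 1000 transcripts of FTH1 and FTL in siCTR samples, and 2.57, 2.41 and 2.29 in siCEP20 samples, computed after seeing the values and again without overlap. The length and GC correction lowered the difference between the log2 fold changes of NCOA4 and FTH1 from 0.27 to 0.093, and that between NCOA4 and FTL from 0.38 to 0.13.

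Among the importers, TFRC (ENSG00000072274, chromosome 3 from 196012511 to 196082153), the transferrin receptor, measured 106, 116 and 115 TPM under siCTR and 124, 129 and 115 TPM under siCEP20. The groups overlapped, since siCEP20 sample 3 lay just below siCTR samples 2 and 3. The log2 fold change of 0.12 had a 95% interval from -0.03 to 0.28 (limma adjusted p = 0.165), and it was -0.0082 relative to all tested genes. Its sign turned with median-of-ratios scaling (-0.026) and with the length and GC correction (-0.10).

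SLC11A2 (ENSG00000110911, chromosome 12 from 50979401 to 51028566) encodes DMT1, which moves ferrous iron out of endosomes and across the cell membrane. It measured 52.1, 59.8 and 50.7 TPM under siCTR and 62.8, 57.8 and 58.2 TPM under siCEP20, again with overlap. The log2 fold change was 0.14 (95% interval -0.04 to 0.32, limma adjusted p = 0.19), or 0.0059 relative to all tested genes, and it was -0.010 with median-of-ratios scaling and -0.061 with the length and GC correction.

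SLC39A14 (ENSG00000104635, chromosome 8 from 22367278 to 22434129, plus strand), which encodes ZIP14, an importer of iron that is not bound to transferrin and of zinc and manganese, was the 1 member that fell. It measured 179.6, 202 and 189 TPM under siCTR and 142, 146 and 169 TPM under siCEP20, without overlap, as for 17.0% of tested genes in the downward direction. The mean went from 190.1 ± 11.0 to 153 ± 14.7 TPM (SD, n = 3 each), or 80.2% of the control level. The log2 fold change was -0.32 with a standard error of 0.079 (limma, adjusted p = 0.0127) and -0.45 relative to all tested genes. It ran from -0.52 to -0.27 over the alternatives and missed the threshold in 1 of them, without a filter on low TPM (adjusted p = 0.0516).

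SLC40A1 (ENSG00000138449, chromosome 2 from 189560590 to 189583758), which encodes ferroportin, the iron exporter, was the least abundant of the 9 genes. It measured 2.81, 3.87 and 3.18 TPM under siCTR and 3.53, 2.93 and 3.17 TPM under siCEP20, with the siCEP20 values inside the range of the control values. The log2 fold change was -0.021, with a 95% interval from -0.35 to 0.31 (limma adjusted p = 0.92), so that a change of that size in either direction was not detectable here.

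The log2 fold changes of the 2 iron regulatory protein genes had opposite signs, but only that of ACO1 passed as reported. ACO1 (ENSG00000122729, chromosome 9 from 32384603 to 32454769) encodes IRP1, which is the cytosolic aconitase when it carries an iron-sulfur cluster and binds RNA when it does not. It measured 40.9, 28.5 and 36.4 TPM under siCTR and 45.7, 47.2 and 48.8 TPM under siCEP20. All siCEP20 values were higher, and the control values were the more scattered. ACO1 went from 35.3 ± 6.27 to 47.2 ± 1.55 TPM (SD, n = 3 each) for a log2 fold change of 0.43 with a standard error of 0.12 (limma, adjusted p = 0.0218), or 0.29 relative to all tested genes. The call ended under 6 of 17 alternatives, among them median-of-ratios scaling (0.28, adjusted p = 0.137), the length and GC correction (0.18, adjusted p = 0.369) and leaving out siCEP20 replicate 2 (adjusted p = 0.0579) or replicate 3 (adjusted p = 0.0606). Leaving out siCTR replicate 1 gave 0.54 and leaving out siCTR replicate 2 gave 0.29.

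IREB2 (ENSG00000136381, chromosome 15 from 78437431 to 78501453) encodes IRP2, which is degraded when iron is plentiful. It measured 22.3, 27.2 and 30.1 TPM under siCTR and 25.0, 24.0 and 21.2 TPM under siCEP20, and the groups overlapped through siCTR sample 1. The log2 fold change was -0.17 (95% interval -0.44 to 0.10, limma adjusted p = 0.28), or -0.30 relative to all tested genes. IREB2 passed the threshold with median-of-ratios scaling (-0.31, adjusted p = 0.0387), quantile normalization (-0.30, adjusted p = 0.0462) and the length and GC correction (-0.41, adjusted p = 0.00809). The ratio of ACO1 to IREB2, computed after seeing the values, was 1.84, 1.05 and 1.21 in siCTR samples and 1.83, 1.96 and 2.31 in siCEP20 samples. The 2 groups overlapped by the small distance between siCTR sample 1 and siCEP20 sample 1.

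**Figure D3:**
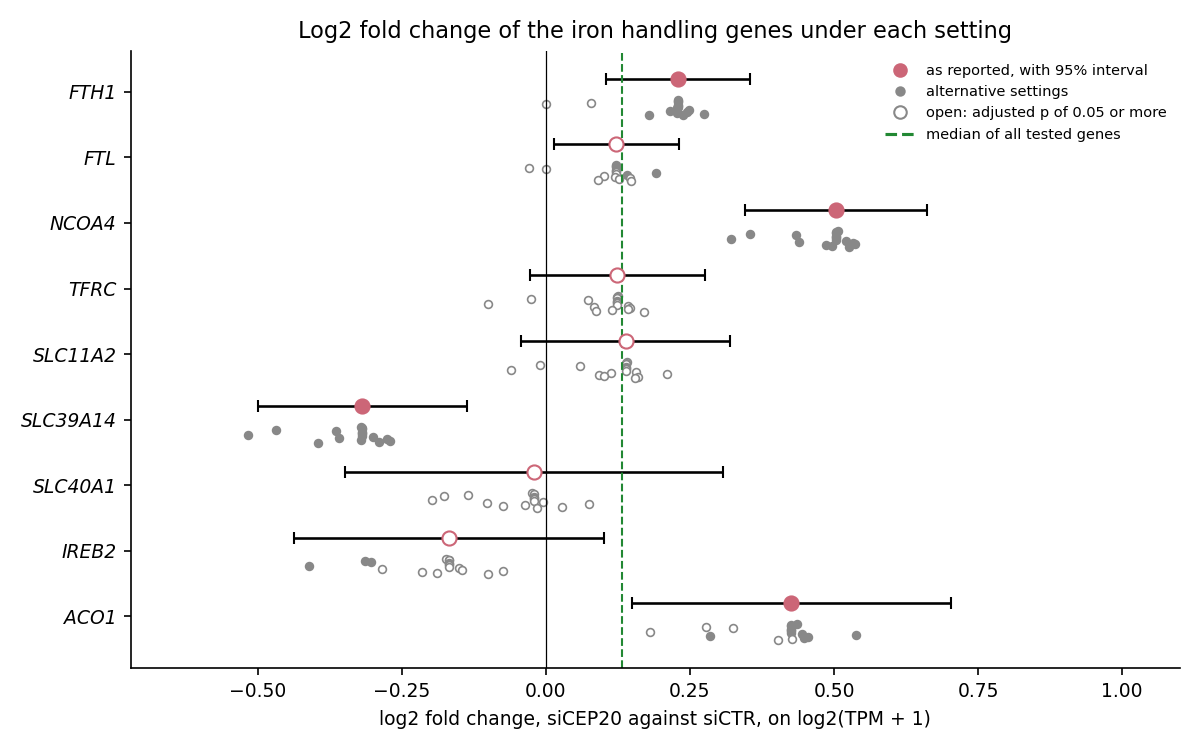
Log2 fold change of each iron handling gene (horizontal axis, siCEP20 against siCTR, on log2(TPM + 1)) as reported, in red with its 95% interval, and under up to 17 alternative settings, in grey, with open symbols where the adjusted p was 0.05 or more. All settings of NCOA4 lie above 0 and are filled, all of SLC39A14 lie below 0, and those of TFRC, SLC11A2 and SLC40A1 fall on both sides of 0 and are open.

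By level, the order of the genes in siCTR samples was FTH1, FTL, SLC39A14, TFRC, NCOA4, SLC11A2, ACO1, IREB2 and SLC40A1, and the order of the means was the same in siCEP20 samples. In every siCTR library each gene lay above the next, and the ranges over the 3 libraries overlapped for ACO1 and IREB2 and for no other neighbours. In siCEP20 samples ACO1 and IREB2 were separate, while TFRC (114.6 to 129 TPM) and NCOA4 (116 to 123 TPM) overlapped. TFRC against ferritin was 2.49, 2.63 and 2.61 transcripts per 1000 transcripts of FTH1 and FTL in siCTR samples and 2.61, 2.57 and 2.27 in siCEP20 samples, with overlap.

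The genes whose log2(TPM + 1) followed a member most closely were sought over the 6 libraries, as a description with no test, since with so few libraries that share a group difference many genes reach a high Pearson correlation. For FTH1 they were NFKB1 (0.998), NOMO1 (0.997) and MYCBPAP (0.997). For FTL they were BORA (0.996), CDK19 (0.996) and TRIM44 (0.995), and for TFRC they were AOC2 (0.996), WDFY3 (0.995) and CUL4B (0.993).

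The 9 genes were set beside a wider list of iron genes written by role, 92 genes with the 9 included. Of these, 84 were tested, 28 were higher, 19 lower and 37 did not pass at an adjusted p-value under 0.05 (limma), and the median log2 fold change was 0.041 against 0.13 for all tested genes. These counts stand beside 30.2% of all tested genes higher and 13.2% lower, which are also the shares to read each role's count as reported against. Each role's counts with median-of-ratios scaling are to be read against the numbers of all tested genes under that scaling, given below. The share that was higher depended on the scale between libraries. With median-of-ratios scaling, 13 were higher and 31 lower, beside 2963 and 3185 of the 14778 tested genes. With the length and GC correction, 18 were higher and 25 lower, beside 2958 and 3128 of the 14778. Leaving out siCEP20 replicate 2 left 18 higher and 19 lower, beside 3351 and 1685 of 14735 tested genes. Of the 47 genes that passed, 25 passed in the same direction in every alternative. GCH1, which is not among the 25, passed in all 16 alternatives that tested it. The share of all called genes that passed in every alternative was not computed.

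**Figure D4:**
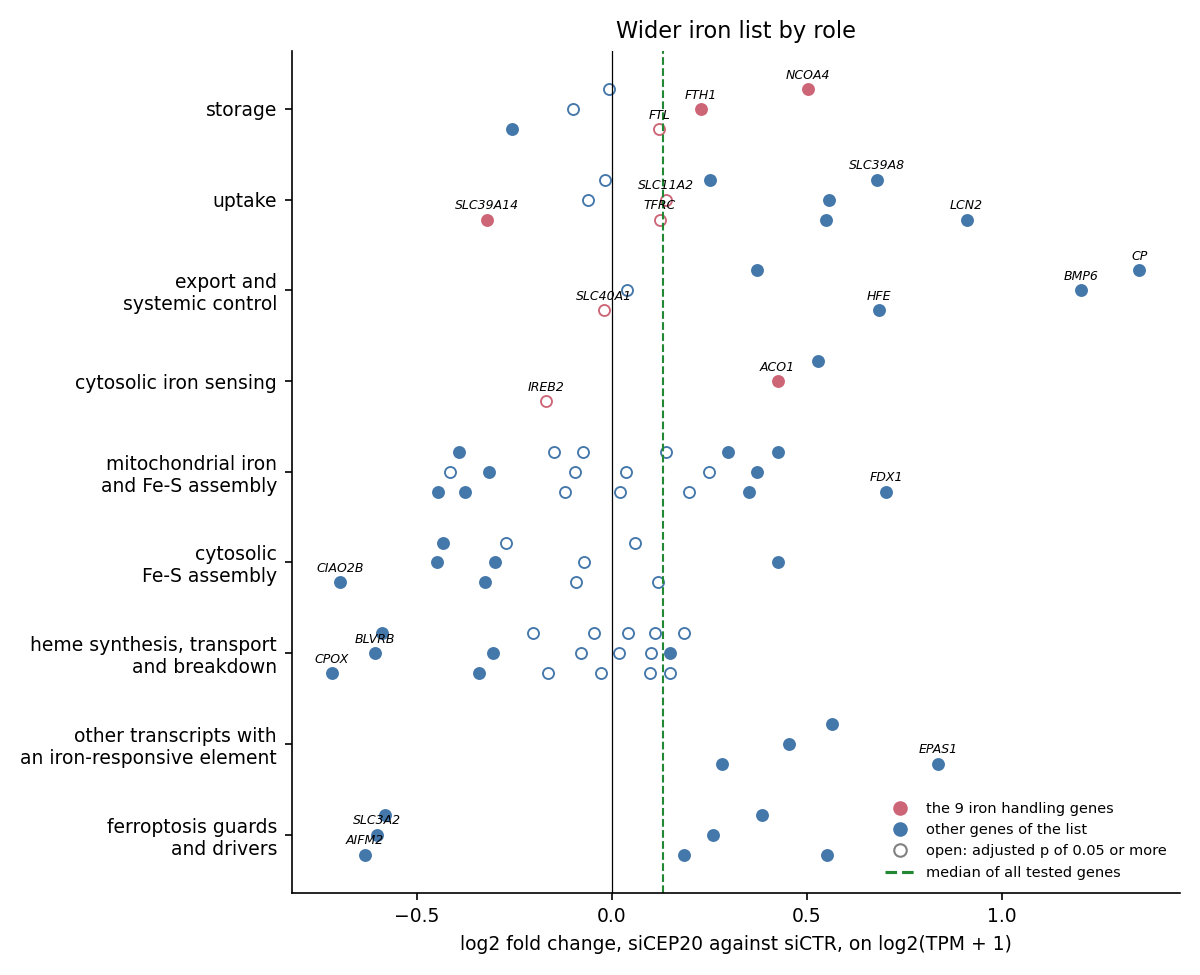
Log2 fold change (horizontal axis, siCEP20 against siCTR, on log2(TPM + 1)) of the 84 tested genes of the wider iron list, in rows by role, with the 9 iron handling genes in red and the others in blue. Open symbols did not pass an adjusted p of 0.05, names are given for the 9 genes and for those past the fold change threshold whose log2 fold change exceeded 0.6 in size, and the dashed line is the median of all tested genes (0.13). CP and BMP6 lie farthest to the right and CPOX and CIAO2B farthest to the left.

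Beside the importers, 5 of 7 other tested uptake genes rose and none fell, and 3 of 7 were higher with median-of-ratios scaling. SLC39A8 (ZIP8, the closest relative of ZIP14) went from 26.4 ± 1.02 to 43.0 ± 3.45 TPM (SD, n = 3 each) for a log2 fold change of 0.68, in the opposite direction to SLC39A14. The endosomal ferrireductase gene STEAP3, whose product reduces the iron that TFRC brings in, went from 76.5 ± 6.18 to 113 ± 6.11 TPM (0.56), and LCN2, which binds iron carried by siderophores, from 12.0 ± 1.97 to 23.3 ± 2.56 TPM (0.91). STEAP2 (0.55) and STEAP1 (0.25) were the others, and both lost the call with median-of-ratios scaling. SLC39A8 overlaps a long noncoding RNA gene on the same strand. Transferrin itself (TF) was at most 1.23 TPM.

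Around SLC40A1, 4 of the 5 other tested genes of export and systemic control rose, or 3 with median-of-ratios scaling. CP encodes ceruloplasmin, a copper enzyme that oxidises iron as ferroportin releases it. Its mean went from 46.5 ± 4.90 to 119.9 ± 4.67 TPM (SD, n = 3 each) for a log2 fold change of 1.35 (limma adjusted p = 3.57e-05). BMP6, the ligand that drives hepcidin in liver, was at 8.98, 9.46 and 9.38 TPM under siCTR and at 21.3, 23.4 and 23.3 TPM under siCEP20 (1.20, limma adjusted p = 4.77e-05). HFE (0.69) and NEO1 (0.37) were higher too, but NEO1 passed in only 10 of 17 alternatives. The gene of hepcidin, HAMP, did not exceed 0.193 TPM. CP, BMP6 and HFE each share their span with an expressed gene of the other strand, and for BMP6 this was TXNDC5, with a mean of 196 TPM.

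The storage and sensing roles had few further members. PCBP1 and PCBP2, chaperones that load iron into ferritin, had log2 fold changes of -0.01 and -0.26, and only PCBP2 passed (limma adjusted p = 0.0439), while both were lower with median-of-ratios scaling. FBXL5, the iron-sensing subunit that targets IRP2 for degradation, went from 41.5 ± 2.97 to 60.3 ± 1.57 TPM (SD, n = 3 each) for a log2 fold change of 0.53. FBXL5 overlaps FAM200B on the opposite strand. Other transcripts with a known iron-responsive element were all higher, at 4 of 4, among them EPAS1 from 243 ± 18.0 to 434 ± 10.9 TPM (0.84), CDC14A (0.56) and CDC42BPA (0.28). The call of EPAS1 was kept in every alternative and those of CDC14A and CDC42BPA were not, which left 2 of the 4 higher with median-of-ratios scaling.

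Genes that use iron moved both ways. Of 19 mitochondrial genes for iron import and iron-sulfur cluster assembly, 5 rose (FDX1, ISCA1, SLC25A37, NFS1 and NUBPL) and 4 fell (ISCU, HSCB, IBA57 and FDX2), against 2 higher and 6 lower with median-of-ratios scaling. IBA57, at a mean of 1.70 TPM, passed in 7 of the 16 alternatives that tested it, and NFS1 and NUBPL passed in 10 and 12 of 17. FDX1, a ferredoxin, went from 16.0 ± 0.309 to 26.7 ± 0.888 TPM (0.70), ISCA1 from 42.0 ± 1.04 to 56.7 ± 0.92 TPM (0.43), and ISCU, the scaffold on which clusters are built, from 169.8 ± 12.1 to 130.4 ± 6.61 TPM (-0.38). Of 11 genes of cytosolic cluster assembly, 5 fell (CIAO2B, BOLA2, CIAPIN1, NUBP2 and CIAO2A) and NDOR1 rose, against 8 lower and 0 higher with median-of-ratios scaling. NDOR1, at a mean of 26.5 TPM, passed in 9 of 17 alternatives and overlaps a gene on the same strand with a mean of 15.2 TPM. CIAO2B went from 151 ± 3.23 to 92.7 ± 2.97 TPM (-0.70), BOLA2 had a log2 fold change of -0.45 and CIAPIN1 of -0.30. BOLA2 has a near-identical copy and overlaps a readthrough gene on the same strand, so its value is uncertain.

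Of 18 tested heme genes, 5 fell, among them BLVRB, CPOX, BLVRA and ABCB6, and ALAS1 rose, against 10 lower and 0 higher with median-of-ratios scaling. The call of ALAS1 (0.15, limma adjusted p = 0.0490) was kept in only 5 of 17 alternatives. Biliverdin reductase B (BLVRB) went from 589 ± 31.0 to 386 ± 9.63 TPM (-0.61). CPOX, a late enzyme of heme synthesis, went from 21.8 ± 1.24 to 12.9 ± 0.614 TPM (-0.72). HMOX1, which frees iron from heme, measured 696, 703 and 765 TPM under siCTR and 686, 722 and 714 TPM under siCEP20 and did not pass, except as lower with median-of-ratios scaling (-0.18). Of 7 genes that guard against or drive ferroptosis, a cell death by iron-dependent lipid oxidation, 4 rose (ACSL4, SLC7A11, GPX4 and LPCAT3) and 3 fell (SLC3A2, AIFM2 and GCH1). With median-of-ratios scaling ACSL4 alone of the 4 passed, and all 3 lower genes did. SLC3A2, the partner of the cystine importer SLC7A11, went from 1114 ± 41.5 to 734 ± 29.2 TPM (-0.60) and AIFM2 from 76.4 ± 1.48 to 49.0 ± 3.72 TPM (-0.63), while ACSL4 went from 25.8 ± 3.20 to 38.1 ± 1.64 TPM (0.55).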

How the data were processed

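RNA-seq of 6 A549 samples (3 siCEP20, 3 siCTR) was analysed. The authors trimmed reads with fastp 0.20.1, aligned them to hg38 with HISAT2 2.1.0, quantified transcripts with StringTie 2.0 and deposited TPM per Ensembl gene. Depth cannot be had from TPM, and while the libraries kept strand (dUTP), the strand setting of the quantification and the annotation release are not given in the sources used here. The unit gives no counts, so no count test was run.

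Symbols, places and UTRs came from GENCODE release 44 (99.6% of IDs matched). Genes whose mean reached 1 TPM were compared on the log2(TPM + 1) scale in R 4.3.3, using lmFit and eBayes with a trend from limma 3.58.1, with no rescaling or covariate, adjusted by Benjamini-Hochberg over all tested genes. Steps were tested on simulated data. The 9 genes, the wider list and the tests were chosen with earlier results of these data known. Named were the 9 genes, CEP20, ferritin pseudogenes and overlapping genes, in each role the 3 others with the smallest adjusted p, genes behind counts of 5 or fewer, and the 3 most correlated genes of FTH1, FTL and TFRC. TF, HAMP, HMOX1 and PCBP1 were added after seeing values. Some genes that this rule names are not reported here. Alternatives changed pseudocount, filter, scaling, trend, replicate block, gene set, length and GC correction (loess, span 0.5), pseudogenes and libraries.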

Additional observations from a re-analysis of the deposited data

How the results depend on the processing

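NCOA4 kept its direction and its call in all 17 alternatives, and SLC39A14 in all but the one without a filter on low TPM (-0.32, adjusted p = 0.0516). Without that filter FTH1 (0.23, adjusted p = 0.517) and ACO1 (0.43, adjusted p = 0.0892) were not called either, leaving 1 member higher and 0 lower. In the wider list 17 genes were then higher, beside 3591 of all 28974 genes tested in that setting. The cause of the lost calls was not tested. Median-of-ratios scaling gave FTH1 0.079, FTL -0.029, TFRC -0.026, SLC11A2 -0.010, IREB2 -0.31 (called) and ACO1 0.28 (not called), with 1 member higher and 2 lower. In the wider list 13 genes were then higher and 31 lower, beside 2963 and 3185 of all 14778 tested genes. Quantile normalization gave FTH1 and FTL 0, because each takes the same ranks in both groups, so it could call neither. It gave IREB2 -0.30 (called) and ACO1 0.33 (not called), again with 1 member higher and 2 lower. The length and GC correction gave FTH1 0.23 (called), FTL 0.19 (called), TFRC -0.10, SLC11A2 -0.061, IREB2 -0.41 (called) and ACO1 0.18 (not called), with 3 members higher and 2 lower. In the wider list 18 genes were then higher and 25 lower, beside 2958 and 3128 of all 14778 tested genes. FTH1 was not called without a trend in eBayes (0.23), and FTL was called with a filter at 5 TPM (0.12) and, in a setting chosen after seeing the data, with the mitochondrial pseudogene rows left out (0.14).

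With each replicate left out in turn, the log2 fold change of SLC40A1 ran from -0.10 to 0.075, its sign turning without siCTR replicate 2 or without siCEP20 replicate 2 (0.027), and that of ACO1 from 0.29 to 0.54. Between 18 and 27 genes of the wider list were higher, beside between 3351 and 4340 of all tested genes. FTH1 (0.18 to 0.27) and NCOA4 (0.44 to 0.54) kept their calls. CEP20 was lower in both settings tried for it, and the ferritin H to L ratio was not moved beyond 1 SD by adding the pseudogenes. No member passed the fold change threshold in any alternative. With a replicate block, NCOA4 kept its log2 fold change of 0.50, and over all genes 4274 were higher and 1857 lower, with no member's call changed. The numbers did not pair the samples throughout: deviations from the group means correlated at 0.157, -0.0614 and -0.0623 for replicates 1, 2 and 3. Of these, only replicate 1 correlated best with its own number. The best match of siCTR replicate 2 was siCEP20 replicate 3 (0.170), and that of siCTR replicate 3 was siCEP20 replicate 2 (0.104). The replicate block followed the numbers, and a block by these matches was not tested. TPM keeps no depth, so counting error could not be given, which limits SLC40A1 most.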

Other observations

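Of the wider iron list, 8 genes did not reach a mean of 1 TPM. FTMT, HJV and ALAS2 were listed at 0 in every library, and HEPH, HAMP, STEAP4 and TMPRSS6 did not exceed 0.437 TPM. FTMT encodes a ferritin of mitochondria, HEPH a copper oxidase that works with ferroportin in gut, and HJV and TMPRSS6 encode regulators of hepcidin in liver. TF, the transferrin gene, was listed between 0.101 and 1.23 TPM.

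The mitochondrial pseudogene MTATP8P1 was at 23886 TPM in siCTR replicate 1 and at 51263 TPM in siCEP20 replicate 1, and MTATP6P1 at 5005 TPM in siCTR replicate 2 and at 12078 TPM in siCEP20 replicate 3. Each was listed at 0 in the other 4 libraries. Their part in the values of the iron genes was measured by leaving them out with all other mitochondrial pseudogene rows, which brought FTH1 in siCEP20 replicates 1, 2 and 3 to 26688, 26630 and 29262 TPM.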
